A study of Mus musculus with 2 samples.

Results

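The genes described here were 7 members of the transforming growth factor beta (TGF-beta) pathway, picked by symbol from the 19465 features of a spatial expression series of mouse pancreatic tumors: the ligands Tgfb1, Tgfb2 and Tgfb3, the receptors Tgfbr1 and Tgfbr2, the target Tgfbi and the feedback inhibitor Smad7. Each symbol matched a single feature, and all 7 passed a minimum of 200 UMIs over both libraries. The series held 2 libraries, 1 per label. KPC-shZEB1 was tumor tissue from a pancreas injected with KPC cells carrying a knockdown of the transcription factor ZEB1, and KPC-shV was tumor tissue from the same orthotopic model injected with control-vector cells. KPC cells came from engineered mice whose pancreatic tumors are driven through Pdx-1-Cre, and both lines were made with lentivirus and drug selection. The study's text places the profiled tumors among gemcitabine-treated allografts that it describes in immunocompetent mice, which the labels do not mention, and the methods name no strain for them. They give 2 tumors per group and do not say which tumor a library covers. The names KPC-shZEB1 and KPC-shV below stand for the libraries so labelled.

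TGF-beta ligands are secreted in a latent form bound to carrier proteins in the matrix and are released by integrins, proteases and thrombospondin. The active ligand binds the type II receptor, which recruits and phosphorylates the type I receptor, and Smad2 and Smad3 then enter the nucleus with Smad4 to change transcription. The pathway is a known inducer of epithelial-mesenchymal transition (EMT), the program that ZEB1 also drives, and in pancreatic cancer it is known both for restraining epithelial growth and for activating the fibroblasts that lay down the stroma.

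On GRCm38 (GENCODE annotation) the members are protein-coding genes on different chromosomes: Tgfb1 at chr7:25687002-25705077 (plus strand), Tgfb2 at chr1:186622792-186705989 (minus), Tgfb3 at chr12:86056745-86079041 (minus), Tgfbr1 at chr4:47353222-47414931 (plus), Tgfbr2 at chr9:116084293-116175360 (minus) and Tgfbi at chr13:56609523-56639562 (plus). RefSeq promoter windows (GRCm38.p6, 250 bases before to 50 after the start site) matched 5 of the 7 members, Tgfbr1 with 2 start sites, and not Tgfb3 or Smad7. The 250 bases before the start are shown for 3 members as examples of 2 patterns over the tissue in the main setting described below. Tgfb1 was close to level in hypoxia-rich spots, and Tgfb2 and Tgfbr2 were high in fibroblast-rich spots and low in hypoxia-rich ones. Capitals mark the Smad box, GTCTG or CAGAC on the other strand, the short letters that Smad3 and Smad4 are known to bind.
Tgfb1, chr7:25686752-25687001, plus strand: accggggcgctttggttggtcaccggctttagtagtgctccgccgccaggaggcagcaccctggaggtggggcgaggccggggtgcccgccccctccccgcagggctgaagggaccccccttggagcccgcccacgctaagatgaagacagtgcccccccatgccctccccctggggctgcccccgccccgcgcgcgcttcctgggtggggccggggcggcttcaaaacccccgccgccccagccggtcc
Tgfb2, chr1:186705990-186706239, minus strand: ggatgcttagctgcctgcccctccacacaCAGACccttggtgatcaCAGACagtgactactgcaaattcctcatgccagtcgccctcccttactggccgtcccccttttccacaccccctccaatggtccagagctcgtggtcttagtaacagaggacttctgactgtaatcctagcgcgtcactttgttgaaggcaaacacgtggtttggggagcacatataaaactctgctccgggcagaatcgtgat
Tgfbr2, chr9:116175364-116175613, minus strand: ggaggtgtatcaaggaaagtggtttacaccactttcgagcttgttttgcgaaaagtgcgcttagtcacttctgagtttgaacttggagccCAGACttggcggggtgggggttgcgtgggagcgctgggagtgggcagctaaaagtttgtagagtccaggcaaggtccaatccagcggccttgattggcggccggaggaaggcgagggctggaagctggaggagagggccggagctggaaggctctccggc

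The Smad box lay 221 and 204 bases before the start of Tgfb2 and 160 bases before that of Tgfbr2, and was absent from these bases of Tgfb1. It also lay 239 and 85 bases before the start of Tgfbi and 203 bases before the second start of Tgfbr1. It was thus in 4 of the members' 6 windows, and in 49.6% of all 32851 promoter windows. ACGTG, the core of the hypoxia response element, was found in the Tgfb2 window alone, as a CACGTG palindrome read on both strands 51 and 50 bases before the start, against 19.6% of all windows. CACCTG, searched on both strands as all motifs were, the E-box that ZEB1 is known to bind, was in none of the 6 windows and in 20.2% of all windows. The full Smad element GTCTAGAC was also in none, against 0.213% of all windows. These are matches of letters and not sites of binding.

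Expression was read with a probe-based spatial assay (Visium CytAssist), in which each barcoded spot samples a patch of tissue, often with cells of more than a single type. A level is given as CPM, the UMIs of a gene per 1000000 UMIs of the spots summed. Levels of different genes rest on different probes and were not set against each other. Every interval is an exact 95% interval for counting error only, and with 1 library per label no p-value was computed. A difference was counted when it reached 0.5 on the log2 scale, a 1.41-fold change. In spots, more cells of a type and more RNA per cell cannot be told apart.

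KPC-shZEB1 had 2220 spots with 140493626 UMIs and KPC-shV 3552 spots with 172059528 UMIs. Exocrine tissue took unequal parts of them: acinar genes gave over 20% of the UMIs in 34.4% of KPC-shZEB1 spots and 7.18% of KPC-shV spots. These acinar-rich spots were left out, because with them the median gene stood at -0.48 on the log2 scale of KPC-shZEB1 over KPC-shV, and without them at -0.02, over 1457 and 3297 spots. Zeb1 itself was not lower in the library labelled as its knockdown: outside acinar-rich spots it stood at 15.6 CPM in KPC-shZEB1 and 12.7 CPM in KPC-shV, giving a log2 ratio of 0.29 (0.19 to 0.39), and in epithelial-rich spots at 8.26 and 6.57 CPM, which put the log2 ratio at 0.33 (0.03 to 0.63). Over all spots, where the median gene stood at -0.48, the Zeb1 log2 ratio was -0.20. Spots mix injected and host cells, both of which can carry Zeb1, and these counts do not separate them. Every direction between the libraries therefore compares these labelled sections and not a measured loss of Zeb1. The sections also differed in makeup. By the summed level of their markers, the fibroblast list was higher in KPC-shZEB1 by 0.85 on the log2 scale, the macrophage list by 0.62, the T cell list by 2.49 and the B cell list by 2.08, while the hypoxia list stood at -1.38, the neutrophil list at -1.24 and the epithelial list at -0.21. The mural list stood at -0.60, the endothelial list at -0.38 and the platelet list at 0.01. Even outside acinar-rich spots the acinar list was higher in KPC-shZEB1, at 6510 against 1918 CPM and a log2 ratio of 1.76. Genes of retina, heart, kidney, testis, lung and brain, which pancreatic tumors should lack, lay between 0.04 and 1.90 CPM.

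Between the libraries, 3 of the 7 members were higher in KPC-shZEB1 (Tgfb2, Tgfb3 and Tgfbi), 1 was lower (Smad7), and Tgfb1, Tgfbr1 and Tgfbr2 stayed within the threshold. Of all 16419 genes, 12.3% were higher and 8.99% lower by the same measure. The median log2 ratio was 0.24 over the members and -0.02 over all genes.

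The ligands differed from each other. Tgfb1, the ligand most studied in immune suppression, was at 247 CPM (244 to 251) in KPC-shZEB1 and 272 CPM (270 to 275) in KPC-shV, for a log2 ratio of -0.14 (-0.16 to -0.12). Tgfb2, an isoform of mesenchymal and developing tissue, was the sparsest member, with 1560 and 1480 UMIs, and its level was 18.3 CPM (17.4 to 19.2) against 8.94 CPM (8.49 to 9.41). Tgfb2 was thus higher in KPC-shZEB1 by 1.03 on the log2 scale (0.93 to 1.14). Tgfb3, an isoform known from palate fusion and scarless repair, was at 166 CPM (164 to 169) and 98.2 CPM (96.7 to 99.7), giving a log2 ratio of 0.76 (0.73 to 0.79). The ligand level that differed least was therefore that of Tgfb1.

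The receptors moved little. Tgfbr1, the type I receptor kinase, stood at 102 CPM (99.6 to 104) in KPC-shZEB1 and 121 CPM (119 to 122) in KPC-shV, which put the log2 ratio at -0.25 (-0.28 to -0.21). Tgfbr2, the ligand-binding type II receptor, stood at 183 CPM (180 to 186) and 155 CPM (153 to 157), for a log2 ratio of 0.24 (0.21 to 0.27). The 2 receptor chains thus lay on opposite sides of 0, both inside the threshold.

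The 2 members that TGF-beta is known to induce went opposite ways. Whether either follows pathway activity in this tissue was not tested. Tgfbi, a secreted matrix protein induced by TGF-beta, was at 117 CPM (115 to 120) in KPC-shZEB1 and 82.1 CPM (80.7 to 83.5) in KPC-shV, giving a log2 ratio of 0.52 (0.48 to 0.55) that only just passed the threshold. With every spot weighted equally the Tgfbi ratio was 0.34, and with acinar-rich spots cut at over 40% it was 0.49, both short of it. Smad7, a gene at chr18:75367529-75395935 (plus strand) that TGF-beta induces and whose product blocks the type I receptor in turn, was at 31.9 CPM (30.7 to 33.1) and 64.1 CPM (62.9 to 65.3). Smad7 was lower in KPC-shZEB1 at a log2 ratio of -1.01 (-1.07 to -0.94), the only member past the threshold in that direction.

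With all spots counted, where the median gene stood at -0.48, the log2 ratio was -0.75 for Tgfb1, 0.47 for Tgfb2, 0.17 for Tgfb3, -0.79 for Tgfbr1, -0.31 for Tgfbr2, -0.10 for Tgfbi and -1.56 for Smad7. No member then passed in the higher direction, and Tgfbr2 and Tgfbi changed sign. Acinar-rich spots held less of every member than the remaining spots of the same library. In KPC-shZEB1, for example, Tgfb1 stood at 16.1 CPM in acinar-rich spots and Tgfbi at 8.28 CPM.

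**Figure D1:**
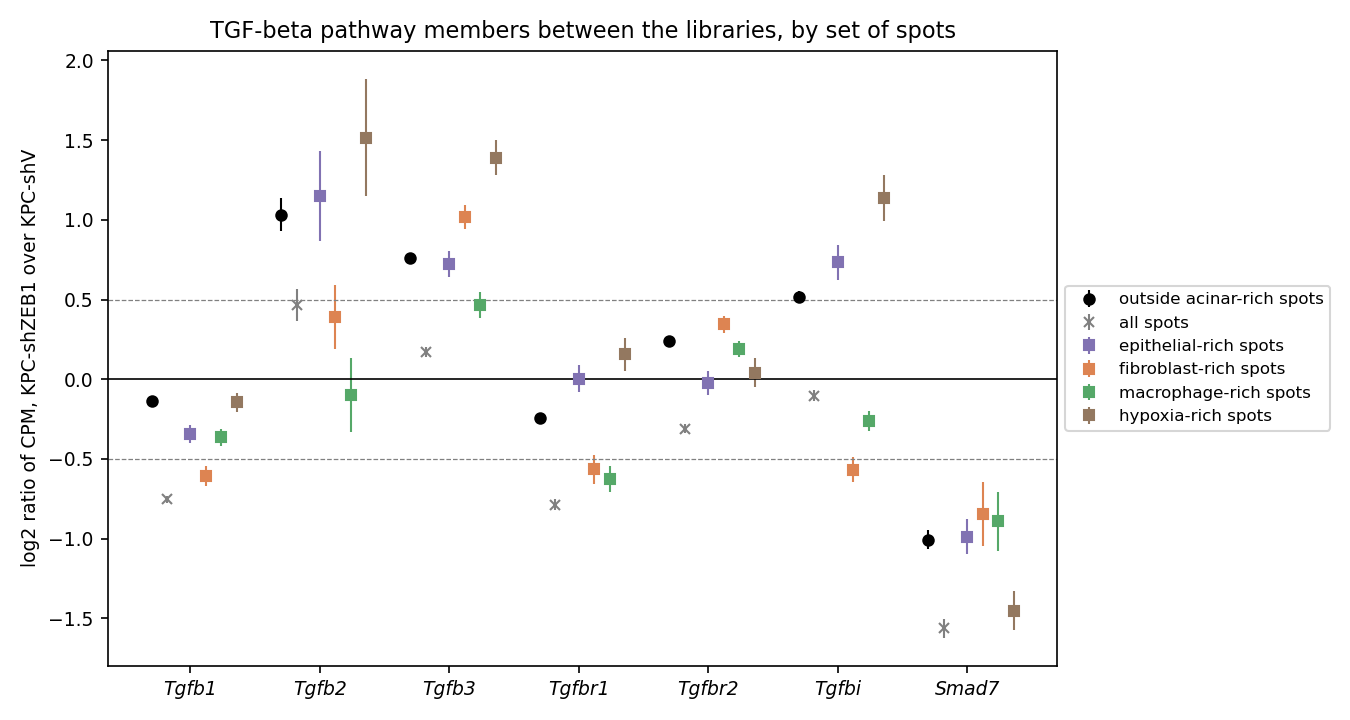
The log2 ratio of CPM of each member, KPC-shZEB1 over KPC-shV, for all spots, for spots outside acinar-rich tissue and for 4 classes of marker-rich spots; bars are exact 95% intervals for counting error and dashed lines mark 0.5 on either side of 0. Smad7 lies below 0 in every set and Tgfb3 above 0 in every set, while Tgfbi runs from -0.57 in fibroblast-rich to 1.14 in hypoxia-rich spots. The marker-rich classes were cut within each library, and with 1 cut for both the hypoxia-rich value of Tgfbi was 0.67.

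To place the members in the tissue, spots outside acinar-rich tissue were ranked in each library by the share of their UMIs from a marker list, and cut into 5 bins of equal size. The highest bin was called epithelial-rich, fibroblast-rich, macrophage-rich or hypoxia-rich, with 291 spots in KPC-shZEB1 and 659 in KPC-shV, and was compared with the other 4 bins of its library. Every list had 7 measured markers, and all 7 were higher in their own rich spots in both libraries, which the ranking itself brings about. No member and no other pathway gene described below was in these 4 lists. Col1a1 and Col3a1, among the pathway genes described below, were however markers in an alternative fibroblast list used as a check. The classes overlapped: fibroblast- and macrophage-rich spots shared 169 spots in KPC-shZEB1 (58.1% of each class) and 496 in KPC-shV (75.3%), and epithelial- and hypoxia-rich spots shared 111 (38.1%) and 320 (48.6%). The stromal and hypoxic classes of KPC-shV were shallow, with medians of 21956 UMIs per spot in fibroblast-rich, 27347 in macrophage-rich and 26886 in hypoxia-rich spots, against 60445.5 to 60752 in the other spots. A difference was counted when it reached 0.5 in the same direction in both libraries.

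In fibroblast-rich spots 3 members were higher in both libraries (Tgfb2, Tgfb3 and Tgfbr2) and 1 was lower (Smad7), against 21.2% of genes higher and 13.8% lower. Tgfbr2 stood at 412 CPM in the fibroblast-rich spots of KPC-shZEB1 against 143 CPM in the other spots, which put the log2 ratio at 1.53 (1.48 to 1.58). In KPC-shV it stood at 325 CPM against 133 CPM, for a log2 ratio of 1.29 (1.25 to 1.33). Among the members, Tgfbr2 had the largest of these ratios in KPC-shZEB1, while Tgfb2 and Tgfbi exceeded it in KPC-shV.

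Tgfb2 was at 30.5 CPM in fibroblast-rich and 16.2 CPM in other spots of KPC-shZEB1, giving a log2 ratio of 0.92 (0.75 to 1.09). In KPC-shV it was at 23.3 CPM and 7.11 CPM, which put the log2 ratio at 1.71 (1.55 to 1.88). Tgfb3 was at 272 CPM against 148 CPM in KPC-shZEB1 and at 134 CPM against 93.6 CPM in KPC-shV, so that the log2 ratios were 0.88 (0.82 to 0.94) and 0.52 (0.46 to 0.58). The step was larger in KPC-shV for Tgfb2 and larger in KPC-shZEB1 for Tgfb3. The Tgfb3 call was lost under 4 of 7 alternatives, through KPC-shV values of 0.49 with 1 cut for both libraries, 0.41 among single-class spots, 0.48 with every spot weighted equally and 0.38 with acinar-rich spots kept, and with 1 cut Tgfbi passed in its place. Other marker lists moved with the fibroblast-rich class: B cell markers by 3.43 on the log2 scale in KPC-shZEB1 and 2.46 in KPC-shV, endothelial markers by 1.99 and 1.52, mural markers by 1.49 and 1.76, platelet markers by 1.14 and 1.91 and T cell markers by 0.86 and 1.97. Their part in these levels was not tested.

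Tgfb1 and Tgfbi did not behave alike in the fibroblast-rich spots of the 2 libraries. Tgfb1 stood at 231 CPM against 250 CPM in KPC-shZEB1, for a log2 ratio of -0.12 (-0.17 to -0.06), and at 351 CPM against 262 CPM in KPC-shV, giving a log2 ratio of 0.42 (0.38 to 0.46). The Tgfb1 sign held under 4 of 7 alternatives in KPC-shZEB1 and 6 of 7 in KPC-shV. Tgfbi was higher in fibroblast-rich spots by 1.70 on the log2 scale in KPC-shV (1.64 to 1.75) and by 0.34 in KPC-shZEB1 (0.27 to 0.42). Macrophage markers rose with the fibroblast-rich class by 1.90 in KPC-shV and 1.09 in KPC-shZEB1, and their part in the Tgfbi difference was not tested. Tgfbr1 was at 0.13 and 0.49, in KPC-shZEB1 and KPC-shV, both under the threshold.

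In macrophage-rich spots 2 members were higher in both libraries (Tgfbr2 and Tgfbi) and 1 was lower (Smad7), against 19.7% of genes higher and 14.1% lower. Tgfbi was at 213 CPM in macrophage-rich and 98.2 CPM in other spots of KPC-shZEB1, which put the log2 ratio at 1.11 (1.05 to 1.18). In KPC-shV it was at 255 CPM against 57.8 CPM, for a log2 ratio of 2.14 (2.09 to 2.19), the largest of any member in any class. T cell markers moved with the macrophage-rich class by 1.47 in KPC-shZEB1 and 2.54 in KPC-shV, B cell markers by 2.28 and 2.32 and endothelial markers by 1.53 and 1.66, beside 1.59 and 2.29 for the macrophage list itself, and their part in the members' levels was not tested. Over the 5 bins of the macrophage list, Tgfbi rose at every step in both libraries, from 20.02 to 255 CPM in KPC-shV, a 12.7-fold range, and from 48.0 to 213 CPM in KPC-shZEB1, a 4.43-fold range.

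The other members were graded less steeply over the macrophage list. Tgfb1 stood in macrophage-rich spots at log2 ratios of 0.28 (0.23 to 0.33) in KPC-shZEB1 and 0.53 (0.50 to 0.57) in KPC-shV, and rose at all 4 steps between bins in both. Tgfbr1 did so as well, at 0.40 (0.33 to 0.48) and 0.84 (0.79 to 0.89). Tgfbr2 rose at all 4 steps, from 99.2 to 364 CPM in KPC-shZEB1 and from 105 to 319 CPM in KPC-shV. Tgfb2 split the libraries, with a log2 ratio of -0.04 (-0.24 to 0.15) in KPC-shZEB1 and 1.35 (1.17 to 1.51) in KPC-shV. Tgfb3 was at 0.08 and 0.42. Macrophage- and fibroblast-rich spots shared most of their area, so the members' levels in either class are not independent of those in the other. Smad7 stood at -0.50 (-0.67 to -0.34) and -0.61 (-0.71 to -0.51) in macrophage-rich spots and at -0.57 (-0.75 to -0.39) and -0.73 (-0.83 to -0.62) in fibroblast-rich ones. With acinar-rich spots kept, the KPC-shZEB1 values turned to 0.28 and 0.11, and among spots that belonged to a single class Smad7 no longer passed in either class. In all, its call was lost under 4 of 7 alternatives in macrophage-rich and 3 of 7 in fibroblast-rich spots.

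In epithelial-rich spots no member was higher in both libraries by the threshold and 3 were lower (Tgfb2, Tgfb3 and Tgfbi), against 2.71% of genes higher and 13.6% lower. Tgfbi was at 65.5 CPM in epithelial-rich and 134 CPM in other spots of KPC-shZEB1, and at 39.4 CPM and 92.9 CPM in KPC-shV, so that the log2 ratios were -1.04 (-1.12 to -0.95) and -1.24 (-1.32 to -1.16). Tgfb2 stood at -0.73 (-0.93 to -0.53) and -0.83 (-1.06 to -0.61), and Tgfb3 at -0.70 (-0.77 to -0.64) and -0.63 (-0.70 to -0.57). Tgfb1, Tgfbr1 and Tgfbr2 also lay below 0 in both libraries, each past the threshold in 1 of them. Among single-class spots the Tgfb2 call was lost, at -0.30 in KPC-shV, and so was that of Tgfb3, at -0.48 and -0.36. With acinar-rich spots kept none of the 3 passed, and the KPC-shZEB1 values turned to 0.15 for Tgfb3 and 0.45 for Tgfb1. The exception to these low values was Smad7, at 0.55 on the log2 scale (0.43 to 0.66) in KPC-shZEB1 and 0.49 (0.42 to 0.55) in KPC-shV, the second just short of the threshold. Smad7 passed in both libraries under 3 of 7 alternatives. Among single-class spots, however, it stood at 0.24 in KPC-shZEB1 and 0.13 in KPC-shV. The alternative epithelial list gave 0.53 and 0.20 in the same order.

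Hypoxia-rich spots were those rich in transcripts that low oxygen is known to induce, such as Slc2a1, the main glucose carrier, and Vegfa, the angiogenic ligand. In them 1 member was higher in both libraries (Smad7) and 3 were lower (Tgfb2, Tgfbr2 and Tgfbi), against 3.13% of genes higher and 8.38% lower. The ranking was relative to each library: the KPC-shZEB1 class began at 516 CPM of list UMIs, below the 712 CPM over the other spots of KPC-shV. Smad7 was at 44.0 CPM in hypoxia-rich and 29.0 CPM in other spots of KPC-shZEB1, giving a log2 ratio of 0.60 (0.48 to 0.73). In KPC-shV it was at 121 CPM against 56.7 CPM, which put the log2 ratio at 1.09 (1.02 to 1.15). Over the 5 hypoxia bins, Smad7 rose at every step in KPC-shV, from 46.1 to 121 CPM, and went from 27.9 to 44.0 CPM in KPC-shZEB1. The neutrophil list moved with the hypoxia-rich class in KPC-shV, by 2.44 on the log2 scale, and stood at -0.03 in KPC-shZEB1, and its part in the Smad7 difference was not tested. Among spots that belonged to a single class, the hypoxia-rich values of Smad7 were 0.32 in KPC-shZEB1 and 1.03 in KPC-shV.

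The members low in hypoxia-rich spots were led by Tgfbi, at log2 ratios of -0.86 (-0.95 to -0.77) in KPC-shZEB1 and -1.46 (-1.58 to -1.34) in KPC-shV. Tgfb2 stood at -0.56 (-0.77 to -0.35) and -1.04 (-1.36 to -0.73), on 218 and 89 UMIs. Tgfbr2 stood at -0.80 (-0.87 to -0.73) and -0.53 (-0.59 to -0.46). Tgfb3 passed in KPC-shV alone, at -1.07 (-1.17 to -0.98) against -0.43 (-0.49 to -0.36), and so did Tgfbr1, at -0.70 (-0.77 to -0.62) against -0.28 (-0.36 to -0.20). Tgfb1 stood apart: its log2 ratio was -0.02 (-0.07 to 0.03) in KPC-shZEB1 and -0.01 (-0.05 to 0.03) in KPC-shV. In KPC-shV its level nevertheless ran from 328 CPM in the lowest hypoxia bin through 232 CPM in bin 4 to 271 CPM in the highest, so the comparison of the top bin with the rest hides a dip. Over 7 alternatives the Tgfb1 log2 ratio ran from -0.01 to 0.78 in KPC-shZEB1 and from -0.10 to 0.15 in KPC-shV. Its sign held under 1 of 7 and 3 of 7, in the same order. With acinar-rich spots kept, the KPC-shZEB1 values turned to 0.43 for Tgfb2, 0.0101 for Tgfbr2 and 0.17 for Tgfbi. The hypoxia-rich call was lost under 4 of 7 alternatives for Tgfbr2, and under 2 of 7 for Tgfb2 and for Tgfbi.

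**Figure D2:**
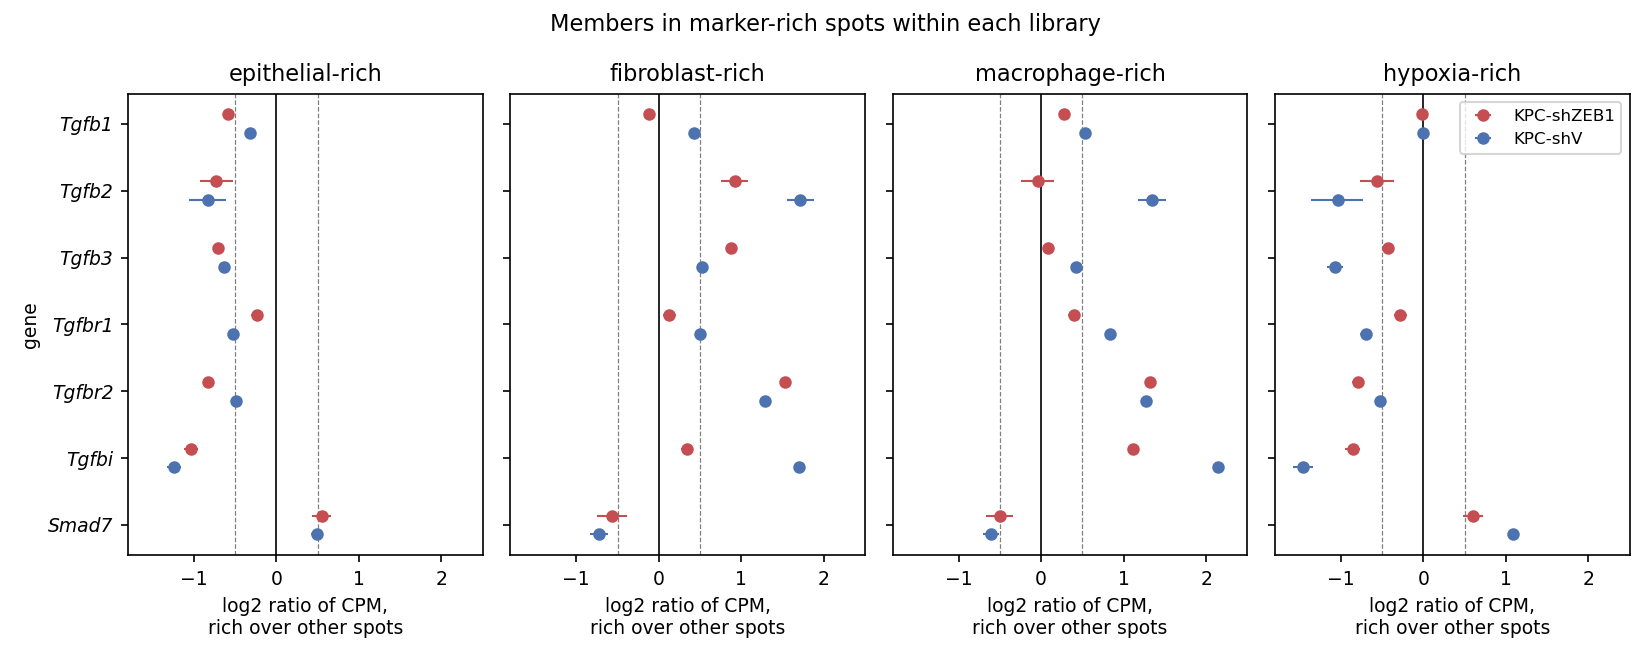
The log2 ratio of CPM of each member in marker-rich over other spots, for the 4 marker lists, with KPC-shZEB1 in red and KPC-shV in blue; bars are exact 95% intervals for counting error and dashed lines mark 0.5 on either side of 0. Smad7 lies on the side opposite to Tgfbr2 and Tgfbi in all 4 classes.

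Read over all 5 bins, the members fell into graded patterns. Tgfbr2 rose at all 4 steps of the fibroblast list in both libraries, from 107 to 412 CPM in KPC-shZEB1 and from 104 to 325 CPM in KPC-shV, and fell at every step of the epithelial and hypoxia lists. Smad7 ran the other way: it fell at every step of the fibroblast list, from 41.6 to 22.6 CPM in KPC-shZEB1 and from 82.5 to 40.6 CPM in KPC-shV, and rose at every step of the epithelial list in both. Tgfb1, Tgfb2, Tgfbr1 and Tgfbi peaked in bin 4 of the fibroblast list in KPC-shZEB1 and in bin 5 in KPC-shV. Over the epithelial list, the highest Smad7 bin of KPC-shZEB1, at 41.9 CPM (39.2 to 44.8), was level within counting error with the lowest bin of KPC-shV, at 40.2 CPM (37.3 to 43.2).

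**Figure D3:**
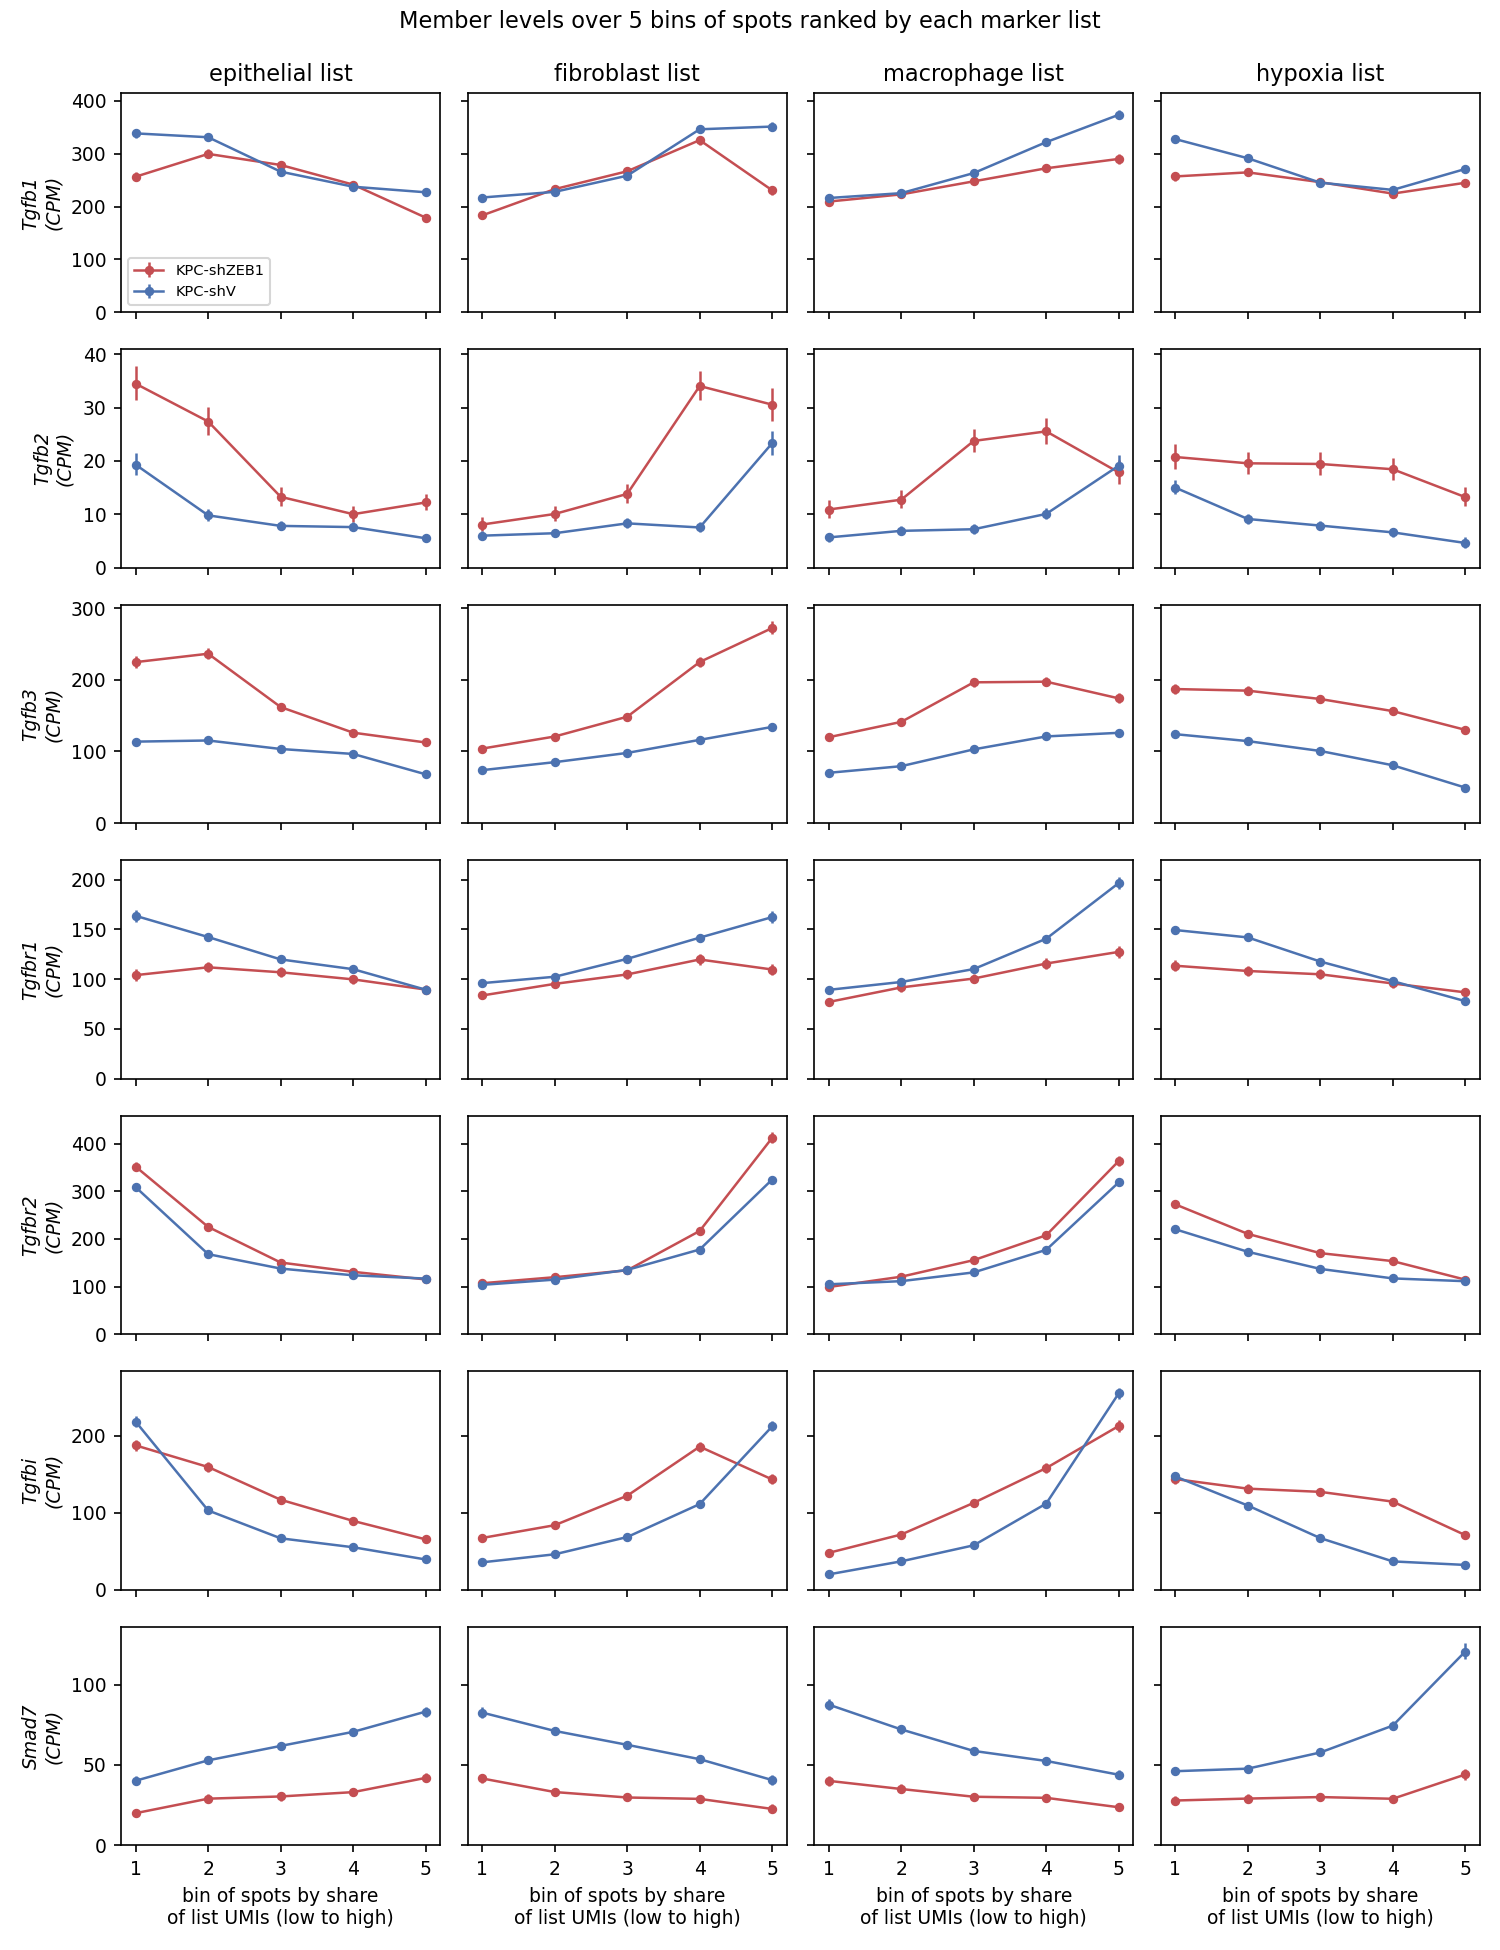
The level of each member in CPM over 5 bins of spots outside acinar-rich tissue, ranked within each library by the share of UMIs from each marker list, with bars for exact 95% counting intervals. Tgfbr2 and Tgfbi climb over the macrophage bins in both libraries, from 20.02 to 255 CPM for Tgfbi in KPC-shV, while Smad7 falls over the fibroblast and macrophage bins.

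The libraries were then compared within each class of spots. The classes were cut within each library and were not alike. The hypoxia-rich class began at 516 CPM of list UMIs in KPC-shZEB1 and at 2786 CPM in KPC-shV. With 1 cut for both libraries, the hypoxia-rich log2 ratios were -0.37 for Smad7, 0.61 for Tgfb3 and 0.39 for Tgfb2. The values that follow are those of the unequal cuts. Smad7 was lower in KPC-shZEB1 in all 4 classes, at log2 ratios of -0.99 (-1.10 to -0.88) in epithelial-rich, -0.84 (-1.04 to -0.64) in fibroblast-rich, -0.89 (-1.07 to -0.71) in macrophage-rich and -1.45 (-1.57 to -1.33) in hypoxia-rich spots. Tgfb3 lay above 0 in all 4, from 0.47 (0.39 to 0.55) in macrophage-rich to 1.39 (1.28 to 1.50) in hypoxia-rich spots. Tgfb2 stood at 1.15 in epithelial-rich, 0.39 in fibroblast-rich and 1.51 in hypoxia-rich spots, and at -0.10 (-0.33 to 0.13) in macrophage-rich spots.

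Tgfbi changed direction with the class. It was higher in KPC-shZEB1 in epithelial-rich spots, at 0.73 (0.62 to 0.84), and in hypoxia-rich spots, at 71.0 against 32.3 CPM and a log2 ratio of 1.14 (0.99 to 1.28). It was lower in fibroblast-rich spots, at 143 against 212 CPM and -0.57 (-0.65 to -0.49), and in macrophage-rich spots, at -0.26 (-0.33 to -0.20). Among spots that belonged to a single class, the fibroblast-rich value of Tgfbi was 0.0642 and the macrophage-rich value 0.20. With 1 cut for both libraries the hypoxia-rich value of Tgfbi was 0.67. By its range over the fibroblast bins, 2.76-fold against 5.95-fold, Tgfbi was spread more evenly over KPC-shZEB1 than over KPC-shV. Tgfb1 lay below 0 in all 4 classes, from -0.61 (-0.67 to -0.54) in fibroblast-rich to -0.15 (-0.21 to -0.09) in hypoxia-rich spots. Its hypoxia-rich value kept that sign under only 2 of 5 alternatives, with a range of -0.09 to 0.04. Tgfbr1 stood at -0.57 in fibroblast-rich and -0.63 in macrophage-rich spots and at 0.16 in hypoxia-rich spots, the last turning to -0.18 with 1 cut for both libraries.

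Because the lists themselves differed between the libraries, the spots of both were also pooled and cut into 5 common bins of each list, and the libraries were compared within each bin, a setting chosen after the data were seen. Smad7 lay below 0 in all 5 bins of all 4 lists. Over the hypoxia bins its log2 ratio ran from -0.85 to -0.37, against -1.01 without bins, and the highest bin held only 42 spots of KPC-shZEB1 and 909 of KPC-shV. In that bin Smad7 stood at 82.7 and 107 CPM. Tgfb3 lay above 0 in all 5 bins of all 4 lists, between 0.29 and 0.97 over the fibroblast bins and between 0.52 and 0.61 over the hypoxia bins. The bins match 1 list at a time, and the T cell, B cell and neutrophil lists were not matched.

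The other members were less uniform over the matched bins. Tgfb2 lay above 0 in all 5 bins of the epithelial, fibroblast and hypoxia lists, between 0.15 and 1.69 over the fibroblast bins, and in 4 of 5 macrophage bins. Its largest difference was in the 4th fibroblast bin, at 28.1 against 8.69 CPM. Of the Tgfb2 values above 0, those of fibroblast bins 2 (-0.17 to 0.46) and 5 (-0.02 to 0.36) had intervals spanning 0. So did that of hypoxia bin 5 (-0.51 to 1.18). Tgfbi lay above 0 in 4 of 5 bins of each list and below it in the remaining bin, which was the highest of the fibroblast list (-0.59) and of the macrophage list (-0.40) and the lowest of the epithelial list (-0.39) and of the hypoxia list (-0.09). Some Tgfbi values above 0 were level within counting error: macrophage bin 3 at 0.08 (-0.01 to 0.16) and bin 4 at 0.06 (-0.01 to 0.12). The same held for epithelial bin 2 at 0.07 (-0.004 to 0.14) and hypoxia bin 2 at 0.04 (-0.02 to 0.11). Tgfbr2, which was higher by 0.24 without bins, lay between -0.23 and 0.11 over the fibroblast bins and between -0.23 and 0.04 over the macrophage bins. Tgfbr1 lay below 0 in all 5 bins of the fibroblast, macrophage and hypoxia lists, and Tgfb1 in all 5 fibroblast bins and in 3 of 5 hypoxia bins.

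**Figure D4:**
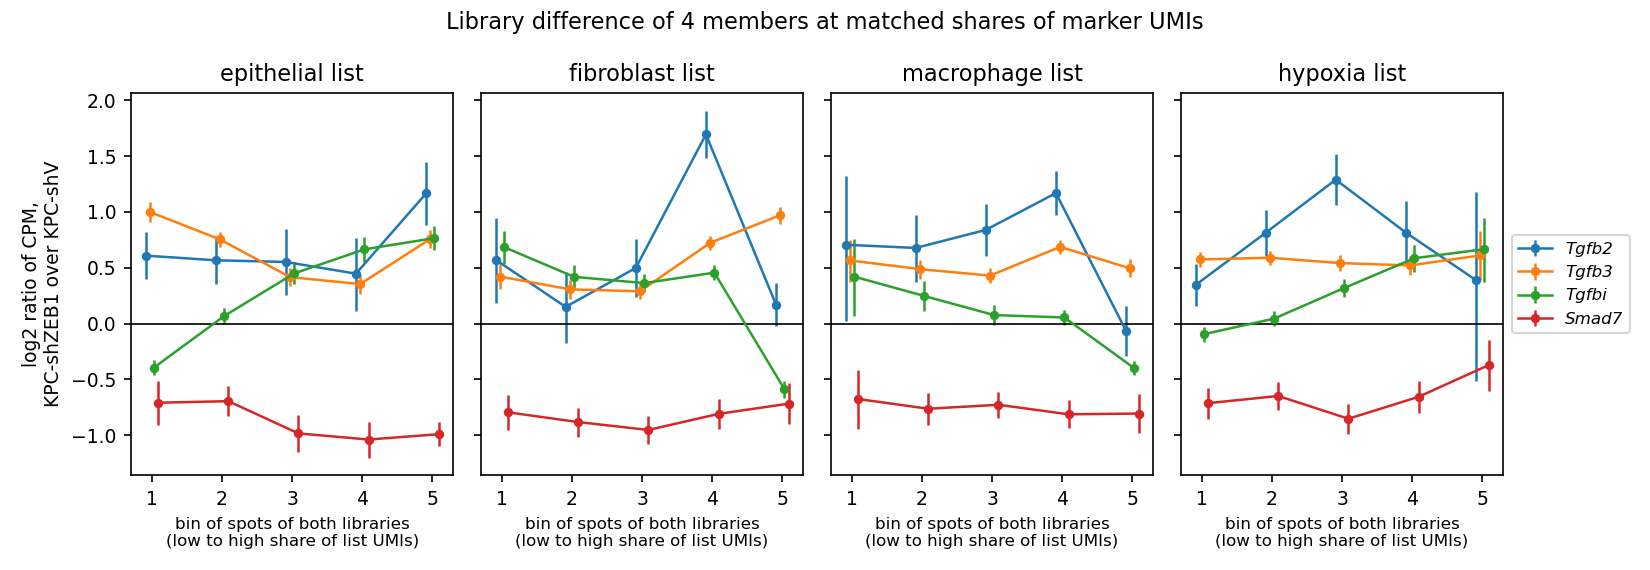
The log2 ratio of CPM, KPC-shZEB1 over KPC-shV, of Tgfb2, Tgfb3, Tgfbi and Smad7 within 5 bins cut over the spots of both libraries together by the share of UMIs from each marker list; bars are exact 95% intervals for counting error. Smad7 stays below 0 and Tgfb3 above 0 in every bin, and Tgfbi falls below 0 in the highest fibroblast and macrophage bins, at -0.59 and -0.40.

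Spot by spot, in spots of at least 20000 UMIs, the members were seen unevenly. Tgfb2 had no UMI in 49.8% of 1405 spots in KPC-shZEB1 and in 65.6% of 2669 spots in KPC-shV, and its highest counts were 15 and 7 UMIs. Smad7 had no UMI in 21.9% and 6.74% of spots, Tgfbi in 3.91% and 12.4%, and Tgfb1 in 0 and 1 spots. Tgfb3 varied more over KPC-shZEB1 than over KPC-shV, at 5.80 and 2.20 times the variance that counting alone gives, and Tgfbi varied more over KPC-shV, at 5.89 against 4.48. This ratio grows with a gene's count, so members were not ranked by it. The counts also differed between the libraries. Medians per spot in KPC-shZEB1 and KPC-shV were 8 and 5 UMIs for Tgfb3 and 5 and 3 UMIs for Tgfbi. Their part in these library gaps was not tested.

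The genes whose levels over spots were most like each member were ranked by the lower of the Pearson correlations in the 2 libraries, over 1457 and 3297 spots that share a section and differ in depth, as a description with no test. For Tgfbr2 they were Serping1, a complement inhibitor, Dcn, a matrix proteoglycan and a marker of the fibroblast list, and Gpx3, a secreted peroxidase, at 0.74 to 0.76 in KPC-shZEB1 and 0.63 in KPC-shV. For Tgfbi they were Ctss, a lysosomal protease of antigen-presenting cells, Cd52, a leukocyte surface protein, and Cybb, a subunit of the phagocyte oxidase, at 0.61 to 0.65 and 0.63 to 0.70. The remaining members had weaker partners. Tgfb1 was most like Tnc (0.51 and 0.37), a matrix glycoprotein, then Cfl1 and Tuba1a of the cytoskeleton. Among the genes most like Tgfb3 were Mgp, a matrix calcification inhibitor (0.51 and 0.40), and Itgb5. Tgfbr1 was most like Mpeg1, a macrophage pore protein (0.34 and 0.36), then Ctss and Timp1. Smad7 was most like Junb, an immediate early transcription factor (0.38 and 0.45), then Lama3 and Bhlhe40. No gene reached 0.3 in both libraries for Tgfb2. Among the 21 pairs of members, Tgfb2 and Tgfb3 had the widest gap between the libraries, 0.45 in KPC-shZEB1 and 0.12 in KPC-shV, and the lowest values were those of Tgfbr2 and Smad7, -0.19 and -0.25.

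The wider pathway was read from a list of 43 measured genes in 7 roles. Between the libraries 7 of the 43 were higher in KPC-shZEB1 and 13 lower, with a median log2 ratio of -0.32 against -0.02 over all genes, of which 12.3% were higher and 8.99% lower. The largest higher differences were those of Itgb8 (1.04), an integrin chain that frees latent TGF-beta, Snai2 (1.03) and Twist1 (0.73), EMT transcription factors, Nrros (0.75), the anchor of latent TGF-beta on macrophages, and Tgfbr3 (0.71), the betaglycan co-receptor. With every spot weighted equally, Nrros stood at 0.36, Twist1 at 0.13 and Tgfbr3 at 0.03, all short of the threshold. The largest lower ones were those of Smurf1 (-1.04), a ubiquitin ligase that works with Smad7, Cdkn1a (-1.02), a cell cycle inhibitor, Thbs1 (-0.80), the thrombospondin that activates latent ligand, Smad3 (-0.76), a receptor-activated Smad, and Lox (-0.69), the collagen cross-linking oxidase.

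By role, the list was not of one direction. Of 7 latency genes 2 were higher and 2 lower, and of 5 activation genes 1 was higher and 1 lower. Of 3 further receptors (Tgfbr3, Eng and Acvrl1) 1 was higher and none lower, and of 5 EMT factors 2 were higher and none lower. Of 3 Smads 2 were lower, and of 8 inhibitors 3 were lower, with none higher in either role. Of 12 targets 1 was higher (Col3a1, a fibrillar collagen, at 0.58) and 5 were lower. With every spot weighted equally Col3a1 stood at 0.08, short of the threshold. Cdkn1a and Smurf1, among the lower genes, were themselves higher in the hypoxia-rich spots of KPC-shV, by 1.55 and 1.08 on the log2 scale. In KPC-shZEB1 those values were 0.47 and 0.29. Cdkn1a and Smurf1 had the largest such values in KPC-shV among the 13 lower genes. Of the other lower genes named above, Thbs1 lay below 0 in hypoxia-rich spots, at -0.26 in KPC-shZEB1 and -0.42 in KPC-shV. Lox did so as well, at -0.51 and -0.13, while Smad3 was above 0, at 0.38 and 0.35. The hypoxia list as a whole stood at -1.38 between the libraries, and its part in these differences was not tested.

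**Figure D5:**
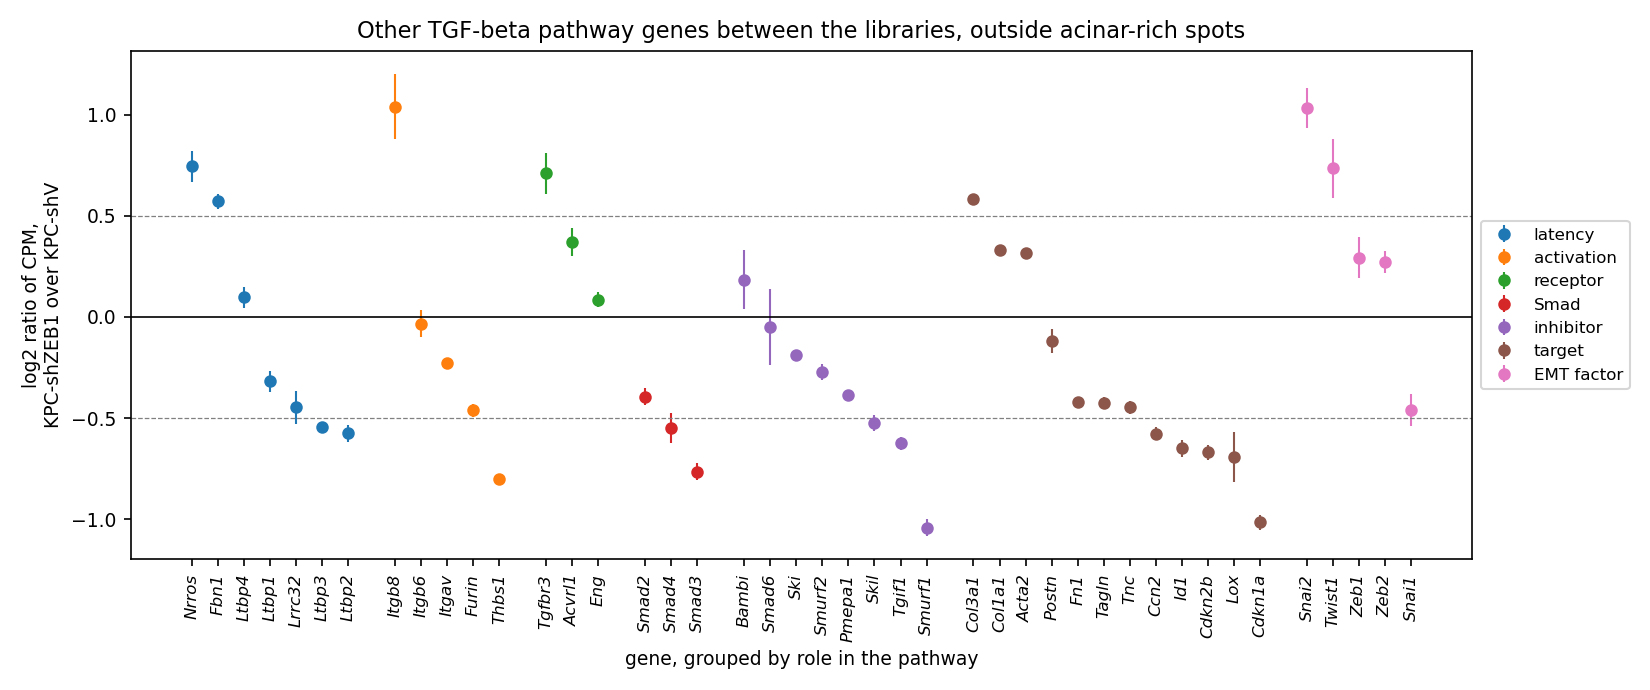
The log2 ratio of CPM, KPC-shZEB1 over KPC-shV, of 43 further TGF-beta pathway genes outside acinar-rich spots, grouped by role, with exact 95% counting intervals and dashed lines at 0.5 on either side of 0. All 3 Smads lie below 0, all 3 further receptors lie above it, and Smurf1 is lowest at -1.04.

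The same list was read over the tissue. In fibroblast-rich spots 20 of the 43 genes were higher in both libraries and 7 lower, against 21.2% and 13.8% of all genes. The pathway list includes collagens and the collagen cross-linking oxidase Lox, so this count depends in part on how the list was made. The higher ones were led by Lox (2.47 in KPC-shZEB1 and 2.56 in KPC-shV), Tgfbr3 (2.17 and 2.82), the collagens Col3a1 (2.14 and 3.13) and Col1a1 (2.13 and 2.54), and Lrrc32, the anchor of latent TGF-beta on regulatory T cells and endothelium (2.07 and 2.17). The lower ones were led by Cdkn2b, a cell cycle inhibitor (-1.15 and -1.10), Ltbp1, a latency carrier (-1.14 and -1.01), and the integrin chains Itgb6 (-1.16 and -0.87) and Itgav (-0.85 and -0.96), which together free latent ligand on epithelium. All 3 further receptors and 5 of 7 latency genes were among the higher ones, and no Smad was.

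In macrophage-rich spots 20 of the 43 were higher and 6 lower, with Nrros at 1.80 and 2.47 and Zeb2, an EMT factor also made by macrophages, at 1.69 and 2.12. In epithelial-rich spots 2 were higher, Itgb6 (1.56 and 0.996) and Itgav (0.65 and 0.68), and 22 were lower, all 5 EMT factors among them. In hypoxia-rich spots 1 was higher, Itgb6 (0.80 and 1.01), and 12 were lower, led by Eng, an endothelial co-receptor (-1.87 and -2.27). The shares of all genes in these directions are those given beside the members. Smad7 and Tgfbi, both transcripts that TGF-beta induces, thus lay on opposite sides in hypoxia-rich spots of both libraries.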

How the data were processed

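The authors sectioned frozen tumor tissue, hybridized probes and transferred them to Visium CytAssist slides, and processed the reads with Space Ranger 2.0.1 against mm10. The deposited values are UMI counts per gene and spot, limited to spots over tissue, which were used unnormalized as 2 matrices. Spot positions were not used here. The members and gene lists were chosen with earlier results of these data known. Counts were summed over spots and scaled to CPM. CPM intervals were exact Poisson intervals, and intervals of log2 ratios came from the exact conditional binomial interval, both at 95%. Acinar-rich spots, with over 20% of UMIs from 23 acinar genes, were left out. Ratios were counted past 0.5 on the log2 scale among genes with at least 200 UMIs over both libraries. Of the listed genes, Ca9 in the hypoxia list and Ppm1a in the pathway list matched no feature used here, and 1 listed pathway target and 1 gene most like Tgfb3 are not reported here. The libraries shared 1718 barcodes, which are slide positions and not cells. The text names the 7 members, at most 5 pathway genes in each direction of a comparison, and the 3 genes most like each member where the lower correlation reached 0.3. Correlations used the log of 1 plus UMIs per 10000. Further pathway genes were named for their role after their values were seen. Scripts ran in Python 3.11.15 with numpy 2.4.6 and scipy 1.17.1, and were tested on simulated data. The alternatives were other sets of spots, cuts, marker lists, scalings and thresholds.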

Additional observations from a re-analysis of the deposited data

Results flagged for a closer look

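In the main setting, Tgfb1 lay on opposite sides of 0 in the fibroblast-rich spots of the 2 libraries. The log2 ratio over other spots was -0.12 in KPC-shZEB1 and 0.42 in KPC-shV, with counting intervals on opposite sides of 0. Opposite signs remained among single-class spots, with every spot weighted equally and in spots of at least 20000 UMIs. They were lost with 1 cut for both libraries, at 0.02 in KPC-shZEB1 and 0.36 in KPC-shV. The alternative marker list gave 0.09 and 0.50, and keeping acinar-rich spots gave 0.68 and 0.28, in the same order. A smaller top class, of 146 and 330 spots, gave -0.19 and -0.02. The difference was not tested, since each label has 1 library.

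The library difference of 2 members differed in sign between classes of spots. For Tgfbr1, set as KPC-shZEB1 over KPC-shV on the log2 scale, it was 0.00244 in epithelial-rich, -0.57 in fibroblast-rich, -0.63 in macrophage-rich and 0.16 in hypoxia-rich spots. The epithelial-rich interval of Tgfbr1 spans 0 (-0.08 to 0.09), the hypoxia-rich value was -0.18 with 1 cut for both libraries, and in common bins Tgfbr1 lay below 0 in all 5 hypoxia bins. For Tgfbi it was 0.73, -0.57, -0.26 and 1.14 in the same order, and among single-class spots its fibroblast-rich and macrophage-rich values were 0.0642 and 0.20. The hypoxia-rich value of Tgfbi was 0.67 with 1 cut for both libraries. These differences between classes were not tested either, and the fibroblast- and macrophage-rich classes share most of their spots.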

How the results depend on the processing

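Counting all spots left 0 members higher in KPC-shZEB1 and 3 lower, turned Tgfbi to -0.10, and gave 1 pathway gene higher and 27 lower in place of 7 and 13. With all spots the median gene itself stood at -0.48, close to the threshold. The share of all genes lower in that setting is not given here, so these counts are not a result about the pathway. A threshold of 1 on the log2 scale left 1 member higher between the libraries, 1 lower in epithelial-rich spots, 1 higher and 0 lower in fibroblast-rich spots, 0 lower in macrophage-rich spots, 0 higher and 0 lower in hypoxia-rich spots, and 2 pathway genes higher and 2 lower. Weighting every spot equally gave 1 member higher in epithelial-rich spots and 2 pathway genes higher between the libraries. Taking the top 10% of spots gave 1 member higher in epithelial-rich spots, 1 cut for both libraries 0 lower in fibroblast-rich spots, and spots of at least 20000 UMIs 0 lower in macrophage-rich spots. The alternative marker lists gave 0 lower in macrophage-rich and 1 lower in hypoxia-rich spots. Spots in 1 class only, against spots in none, gave 1 member lower in epithelial-rich, 0 lower in fibroblast-rich, 0 lower in macrophage-rich and 0 higher in hypoxia-rich spots, and turned the library difference of Tgfbi in fibroblast-rich spots to 0.0642. Keeping acinar-rich spots gave 1 higher and 0 lower in epithelial-rich, 0 lower in fibroblast-rich, 5 higher and 0 lower in macrophage-rich and 0 lower in hypoxia-rich spots. In KPC-shZEB1 it turned Tgfb1 to 0.45 and Tgfb3 to 0.15 in epithelial-rich spots, Smad7 to 0.11 in fibroblast-rich and 0.28 in macrophage-rich spots, and Tgfb2 to 0.43, Tgfbr2 to 0.0101 and Tgfbi to 0.17 in hypoxia-rich spots. The cause was not tested. The shares of all genes under these other settings are not given here either, so the changed counts are not a result about the members. The remaining 57 recomputed counts of members stayed within 1.5 times their value.

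Over the 8 alternatives to the comparison of libraries that give a ratio, Smad7 stayed between -1.56 and -0.99, Tgfb2 between 0.47 and 1.08 and Tgfb3 between 0.17 and 0.87. No paired analysis was possible because each label has 1 library and no replicate numbers. No library could be left out for the same reason, so the spread between tumors is unknown, and the intervals cover counting error only. Depth limits Tgfb2 most, with 89 UMIs in the hypoxia-rich spots of KPC-shV.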
